A study of Mus musculus with 6 samples.

Results

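Venous endothelial cells made up 302 of the 44112 quality-filtered cells from brain microvessels of 6 mice, and 302 of the 22886 endothelial cells of blood-brain barrier type. They were selected by their unique molecular identifiers (UMIs, 1 per captured transcript molecule). A barrier endothelial cell held at least 6 UMIs summed over *Cldn5*, *Flt1*, *Ly6c1* and *Itm2a*, no UMI of the myeloid genes *Cx3cr1*, *Aif1* and *Csf1r*, and at most 1 UMI of *Plvap*. It was called venous when *Ackr1*, *Lcn2*, *Adgrg6* and *Lrg1* summed to at least 3 UMIs, with at most 1 UMI over the large-artery genes *Gkn3*, *Cytl1*, *Fbln5* and *Mgp* and at most 1 over the arteriolar genes *Hey1*, *Stmn2*, *Sema3g* and *Unc5b*. Because these counts chose the cells, the levels of these genes and the contrast of venous with other endothelial cells are given as description, without a test.

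The 6 libraries came from 3 wildtype (WT, C57BL/6J) and 3 TgApp ArcSwe mice, all 12 months old. The study lists its TgApp ArcSwe mice as male, and its WT mice as male apart from 1 female of 12 months. Whether that female is among these 3 WT mice was not settled here. TgApp ArcSwe mice carry a human *APP* transgene with the Arctic and Swedish mutations, which in people cause familial Alzheimer's disease. The promoter of the transgene is not given in the sources used here, and whether reads of the transgene were counted under the mouse gene *App* was not tested. Each library was 1 mouse: vessel fragments were captured from a cerebral hemisphere with beads against CD31, a surface protein of endothelium, and dissociated before droplet 3′ RNA sequencing. No mouse received a treatment.

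Blood in the brain passes from arteries through capillaries into venules and veins, and the endothelium changes its gene expression along this axis. Venules and veins are where leukocytes attach and cross in inflammation, by way of adhesion molecules such as VCAM1 and ICAM1, and venous endothelium is known for its receptors of inflammatory cytokines and its acute-phase genes. Capillary endothelium carries most of the solute transporters of the barrier.

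The number of venous cells was 42, 37 and 59 in WT replicates 1, 2 and 3, and 65, 12 and 87 in ArcSwe replicates 1, 2 and 3. Their UMIs, summed within each mouse, came to 321384, 318247 and 393842 in WT and to 559961, 119946 and 577980 in ArcSwe. ArcSwe replicate 2 was therefore the thinnest sample, and 1 UMI in it stands for the largest step in expression. Levels are given below as CPM, the UMIs of a gene per 1000000 UMIs of the venous cells of a mouse, which allows a gene to be compared between mice and vessel zones but not with another gene. Venous cells were deeper than capillary cells in each library, with median UMIs per cell of 6334.5, 8189 and 5634 in WT and 7834, 9273 and 5510 in ArcSwe, against 2776.5 to 5034 in capillary cells. The libraries shared 285 cell barcodes in pairs, none of them between venous cells.

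One library stood apart in the venous cells. Of 20 immediate early and stress genes, which respond within minutes to stimulation or tissue handling, WT replicate 3 had none above the WT mean, with a median of -1.03 on the log2 scale from that mean. The other WT mice stood at 0.44 and 0.60 and the ArcSwe mice at 0.59, 0.54 and 0.18. Capillary cells of WT replicate 3 were low in the same genes, with a median of -0.69.

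The cells were checked against the markers of the venous label. Of the 302 cells, 73 held UMIs of a single gene of the 4 that chose them, 108 of 2, 80 of 3 and 41 of all 4. *Adgrg6*, an adhesion G protein-coupled receptor, was detected in 232 cells (76.8%), *Lcn2*, which encodes the iron-siderophore carrier lipocalin 2, in 208 (68.9%), *Lrg1*, a secreted glycoprotein, in 139 (46.0%) and *Ackr1*, a chemokine-binding receptor of venular endothelium, in 114 (37.7%). The gate thus held cells with different combinations, and 74 cells stood exactly at its minimum of 3 UMIs. Barrier cells just outside it, with 2 UMIs, numbered 24, 20 and 23 in WT and 26, 7 and 40 in ArcSwe. Their mean levels of *Vcam1* and *Il1r1* over the 6 mice were 1121 and 438 CPM, between those of venous and capillary cells.

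The level of *Ackr1* in venous cells was 137, 59.7 and 355 CPM in WT and 195, 50.0 and 315 CPM in ArcSwe, so it varied more between mice than between genotypes. The share of venous cells with an *Ackr1* UMI ran from 16.2% to 49.2% over the mice, against 0.152% of 12491 capillary cells and 0 of 3094 microglia, which allows a share of up to 0.097% of cells with a UMI, not of cells expressing the gene. Median UMIs per cell were 1485.5 to 6101 in those microglia. With each cell reduced to 2000 UMIs, the *Ackr1* share was 0% to 32.9% in venous cells. *Lcn2* stood at 355, 251 and 300 CPM in WT and 248, 133 and 476 CPM in ArcSwe, against a mean of 3.07 CPM in capillary cells.

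Markers outside the gate were widely detected in the venous cells. *Vwf*, which encodes von Willebrand factor, had a UMI in 97.7% of them, *Il1r1*, the receptor of interleukin 1, in 93.0%, and *Vcam1* in 91.7%. Capillary cells held a *Vcam1* UMI in 11.5% and an *Il1r1* UMI in 19.7%. *Selp*, which encodes P-selectin, was rare, with a UMI in 5.30% of venous cells.

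Venous cells with and without an *Ackr1* UMI also differed in genes other than *Ackr1*. In all 6 mice the *Ackr1*-positive cells had more *Vwf* (mean 1605 against 1131 CPM), *Icam1* (1732 against 1299 CPM), *Apod* (378 against 240 CPM), which encodes a lipid-binding apolipoprotein, and *Ch25h* (172 against 104 CPM), the cholesterol 25-hydroxylase. In all 6 mice they had less *Car4* (129 against 348 CPM), a carbonic anhydrase of capillaries, and less *Cxcl12* (184 against 322 CPM), a chemokine. *Il1r1* did not separate them, at 720 CPM with and 749 CPM without *Ackr1*, higher in 3 of 6 mice. The *Ackr1*-positive cells numbered 3 in ArcSwe replicate 2 and 6 in WT replicate 2, and in the former *Icam1* (1458.5 against 1437.8 CPM) and *Ch25h* (76.8 against 74.6 CPM) were nearly tied. As the cells were split by one of their own counts, these differences are a description.

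Genes of vein identity outside the gate stood higher in venous than in capillary cells. *Vcam1* reached 1593, 2055 and 2562 CPM in WT and 1532, 1426 and 1538 CPM in ArcSwe, against 105 to 210 CPM in the capillary cells of the same mice. The mean venous minus capillary difference of *Vcam1*, taken on log2(CPM + 1) as are all differences between zones, was 3.64 ± 0.30 (SD, n = 6), with no overlap between zones. *Il1r1* was 2.76 ± 0.22 higher, from a venous range of 475 to 1008 CPM, and its mean in arterial cells was 18.5 CPM. *Vwf* was 2.41 ± 0.16 and *Icam1* 2.17 ± 0.41 higher. Transcription of venous fate is governed in part by *Nr2f2*, which encodes COUP-TFII: its mean was 412 CPM in venous, 98.0 CPM in capillary and 34.6 CPM in arterial cells. Of 17 venous genes with at least 20 CPM, 16 were higher than in capillary cells in 6 of 6 mice and none was lower, with a median log2 difference of 2.12. Over all 6922 genes at that level, 9.72% were higher in 6 of 6 mice and 16.1% lower, and the median was -0.12.

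**Figure D1:**
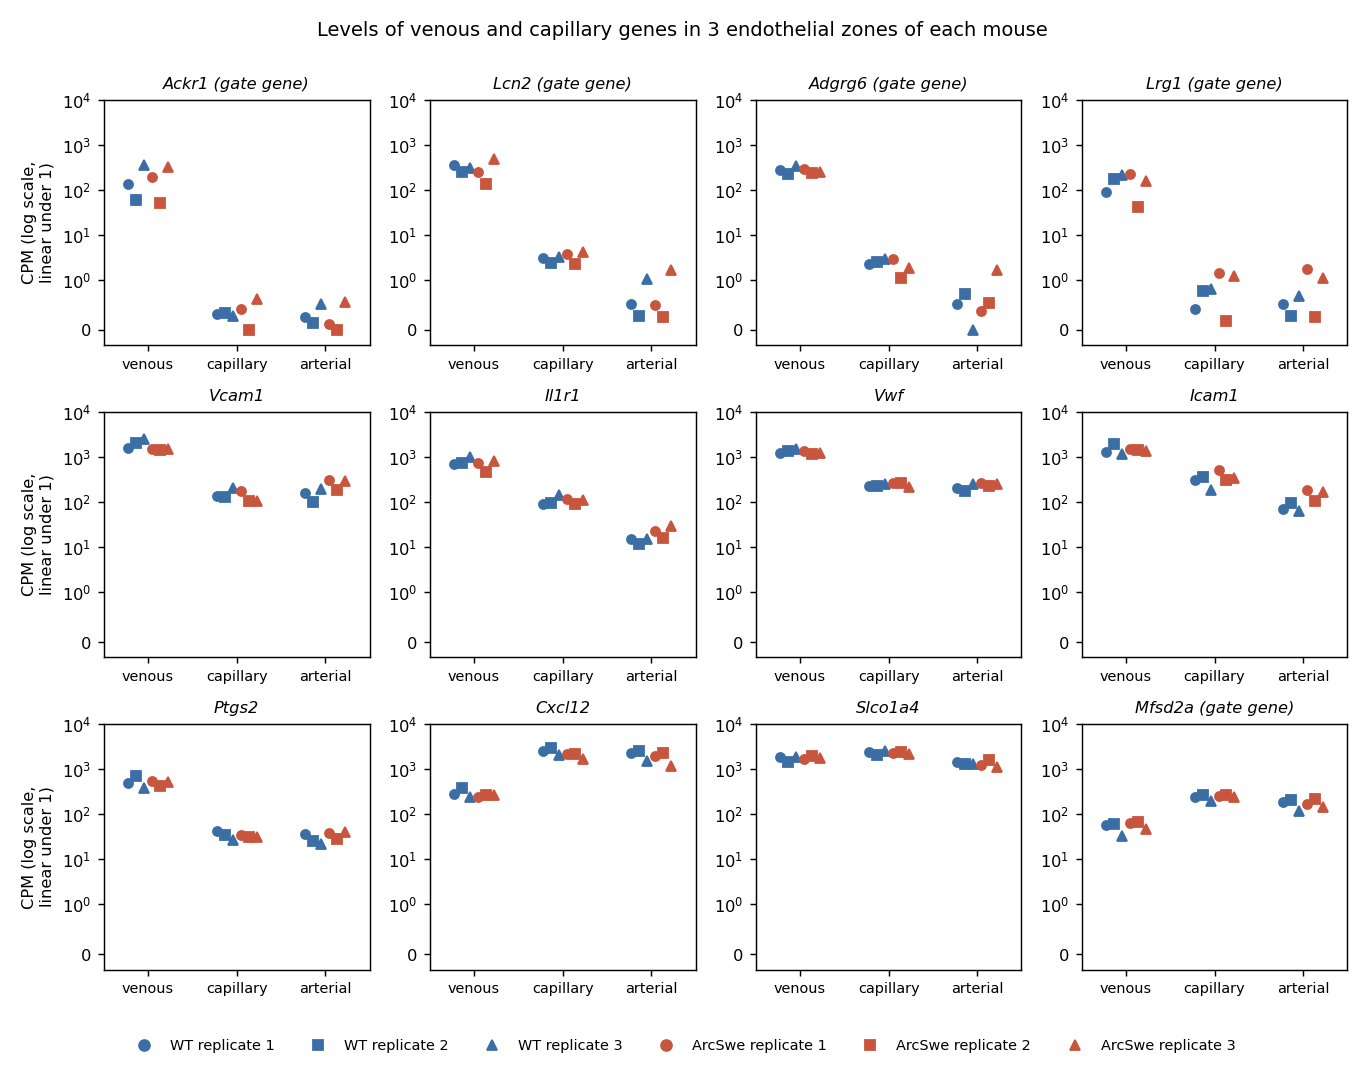
CPM of 12 genes in venous, capillary and arterial cells, on an axis that is logarithmic above 1 CPM and linear below it, with 1 point per mouse (WT blue, ArcSwe red). *Vcam1* and *Il1r1* lay above their capillary values in every mouse and *Cxcl12* below, and genes used in a gate are marked.

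Among genes higher in venous cells in all 6 mice, the 20 outside the gate with the widest venous minus capillary difference were *Tll1*, *Col6a6*, *Atp8b1*, *Samd5*, *Ptgs2*, *Gm5127*, *Col5a2*, *Lama1*, *Vcam1*, *Ppfia2*, *Aplnr*, *Napsa*, *Ch25h*, *Gpm6a*, *Lhx6*, *Ldb2*, *Sele*, *Fxyd6*, *Ifitm1* and *Nkd2*. *Tll1*, a metalloprotease of the tolloid family, led them with 74.7, 84.8 and 91.4 CPM in WT and 55.4, 50.0 and 95.2 CPM in ArcSwe, against a capillary mean of 0.81 CPM. Matrix genes were among them: *Col6a6*, a collagen VI chain, was 4.78 ± 0.61 higher on the log2 scale, and *Lama1*, a laminin chain, 3.71 ± 0.69. *Ptgs2*, which encodes the prostaglandin synthase COX-2, had 507, 707 and 376 CPM in WT and 539, 434 and 531 CPM in ArcSwe, and means of 34.2 CPM in capillary and 31.9 CPM in arterial cells. *Col5a2* and *Ldb2* were set against capillary cells alone, and their arterial means reached 40.3 and 131 CPM. On the lower side the 10 genes with the widest difference were *Hbb-bs*, *Hba-a2*, *Hba-a1*, *Gm9946*, *Hbb-bt*, *Plekhh2*, *Cdh13*, *Rad54b*, *Tagln* and *Htra1*, 4 of them hemoglobin genes.

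Receptors and effectors of inflammatory cytokines were a broad venous group. Of 28 acute-phase and cytokine genes with at least 20 CPM, 20 were higher than in capillary cells in 6 of 6 mice and 2 lower, *Il10rb* among them, with a median difference of 0.95 on the log2 scale. *Il6st*, the signalling chain shared by interleukin 6 family receptors, averaged 337 CPM in venous and 125 CPM in capillary cells. *Osmr*, the oncostatin M receptor chain, averaged 262 against 120 CPM, and *Socs3*, a feedback inhibitor of the same pathway, 615 against 250 CPM. The spread of the *Socs3* difference was narrow, at 1.27 ± 0.11 on the log2 scale, although its level varied between mice. *Cebpd*, a transcription factor of the acute-phase response, averaged 475 against 155 CPM. *Cxcl1*, a neutrophil-attracting chemokine, had 342, 559 and 140 CPM in WT and 311, 358 and 196 CPM in ArcSwe, against a capillary mean of 59.7 CPM.

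MHC class I genes, which present peptides to T cells, also leaned to the venous side. Of 16, 11 were higher than in capillary cells in all 6 mice and none lower, with a median of 0.55. *H2-K1* averaged 1547 CPM in venous and 896 CPM in capillary cells. The non-classical *H2-Q6* and *H2-Q7* differed more, by 1.84 ± 0.63 and 1.80 ± 0.53, but they are near-identical copies between which reads may be divided uncertainly. *Casp4*, an inflammatory caspase, had 84.0, 179 and 88.9 CPM in WT and 145, 167 and 104 CPM in ArcSwe, and a capillary mean of 22.8 CPM.

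Most transporter and capillary genes were lower in venous than in capillary cells. All 8 capillary genes tallied were lower in venous cells in 6 of 6 mice, with a median of -1.31. *Cxcl12* had 277, 387 and 241 CPM in WT and 239, 267 and 265 CPM in ArcSwe, against a capillary mean of 2294 CPM. Of 23 transporter genes, 15 were lower in all 6 mice and 2 higher. The lower ones included *Slco1c1*, a carrier of thyroid hormone (461 against 1357 CPM), and *Tfrc*, the transferrin receptor (168 against 419 CPM). The higher ones included *Slc38a5*, a glutamine transporter (521 against 175 CPM). Of 9 arterial genes outside the gates, 5 were lower in all 6 mice and 2 higher (*Vegfc* and *Eln*), with a median of -0.27. *Dll4*, a Notch ligand of arterial endothelium, averaged 21.8 CPM in venous, 60.4 CPM in capillary and 147 CPM in arterial cells. The tight junction gene *Cldn5*, used to pick all barrier cells, averaged 4085 CPM in venous and 5766 CPM in capillary cells.

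Of 20 immediate early and stress genes, 7 were higher than in capillary cells in all 6 mice (*Fos*, *Fosl2*, *Egr1*, *Ier3*, *Zfp36*, *Nr4a1* and *Hspa1b*) and none lower, with a median of 0.27, and their part in the cytokine group was not tested. Other groups were mixed. Coagulation genes gave 4 higher and 1 lower of 12, with *Thbd* (thrombomodulin, 283 against 147 CPM) among the higher. Interferon-stimulated genes gave 4 higher and 8 lower of 27, with *Irf1* higher (547 against 202 CPM) and *Irf7* lower (30.7 against 57.0 CPM). Genes of amyloid handling gave 7 higher and 4 lower of 18. Among them *Apoe*, which encodes apolipoprotein E, averaged 1726 CPM in venous and 869 CPM in capillary cells, and *Abca1*, the exporter that lipidates it, 89.6 against 28.5 CPM.

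**Figure D2:**
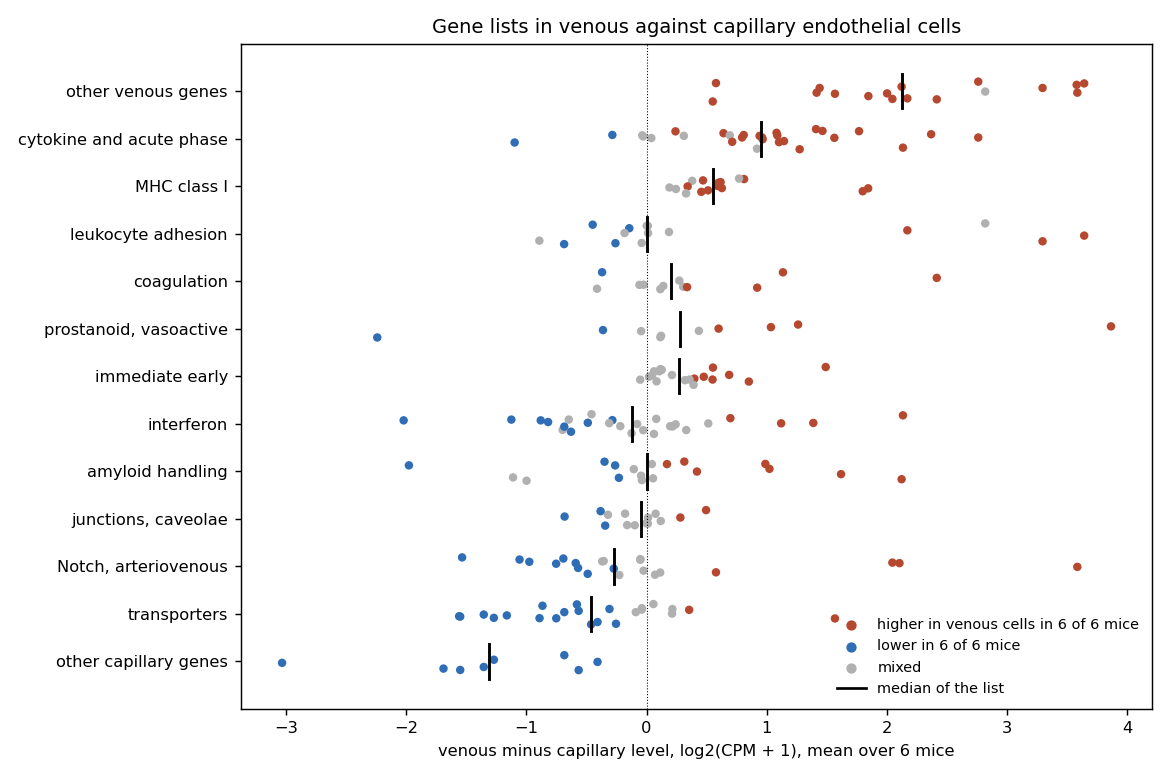
Venous minus capillary difference of log2(CPM + 1), mean over 6 mice, with 1 point per gene of each list, coloured by whether the gene was higher or lower in all 6 mice, and a bar at the list median. The venous and cytokine lists lay above 0 at medians of 2.12 and 0.95, and the capillary list below at -1.31.

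Transcripts of other cell types were measured in the same sums. The 4 hemoglobin genes, which mark erythroid RNA, summed to 15.6, 18.9 and 2105 CPM in WT and 6643, 0 and 220 CPM in ArcSwe. They were highest in WT replicate 3 and ArcSwe replicate 1, and their sums in capillary cells ran from 3785 to 12491 CPM. A UMI of the hemoglobin gene *Hbb-bs* was held by 4 of 42, 2 of 37 and 31 of 59 venous cells in WT. In ArcSwe it was held by 4 of 65, 0 of 12 and 45 of 87. The 14 microglial genes other than *Cst3*, which endothelium also expresses, summed to 156, 201 and 515 CPM in WT and 264, 183 and 510 CPM in ArcSwe. *C1qa*, a complement component of microglia, was at 9.33 to 69.2 CPM in venous cells and 4937 CPM in microglia. Mural genes summed to 33.3 to 98.6 CPM in venous cells, where *Abcc9*, *Cnn1* and *Cspg4* were at 0, and to 209 to 714 CPM in capillary cells. *Tagln*, a smooth muscle marker named above among the lower genes, averaged 7.03 CPM in venous and 82.1 CPM in capillary cells. The fibroblast genes *Dcn*, *Lum*, *Col1a1*, *Pdgfra* and *Slc6a13* were at 0. Of 9 astrocyte genes, 5 were at 0, *Aqp4* and *Gfap* among them, and the list summed to 103 to 132 CPM, led by *Mfge8* at a mean of 77.1 CPM, against 76.1 to 106 CPM in capillary cells. *Ttr*, a choroid plexus transcript, led its list, which summed to 680 CPM in WT replicate 3 and 107 to 351 CPM in the other mice.

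The first genotype comparison asked whether TgApp ArcSwe mice had a different share of venous cells. Venous cells were 1.09%, 1.05% and 1.63% of barrier endothelial cells in WT and 1.39%, 0.757% and 1.55% in ArcSwe. The exact 95% binomial (Clopper-Pearson) intervals, which cover counting error only, were 0.784% to 1.47% in WT replicate 1 and 0.392% to 1.32% in ArcSwe replicate 2, and the groups overlapped. The means were 1.25% ± 0.326 in WT and 1.23% ± 0.421 in ArcSwe (SD, n = 3 each), a difference of -0.0203 percentage points (exact two-sided permutation test, p = 1, where 0.1 is the smallest p that 3 against 3 can give). With cells reduced to 2000 UMIs the means were 0.686% ± 0.651 and 0.757% ± 0.566 (exact permutation p = 0.8). Without ArcSwe replicate 2 the difference was 0.218 points.

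**Figure D3:**
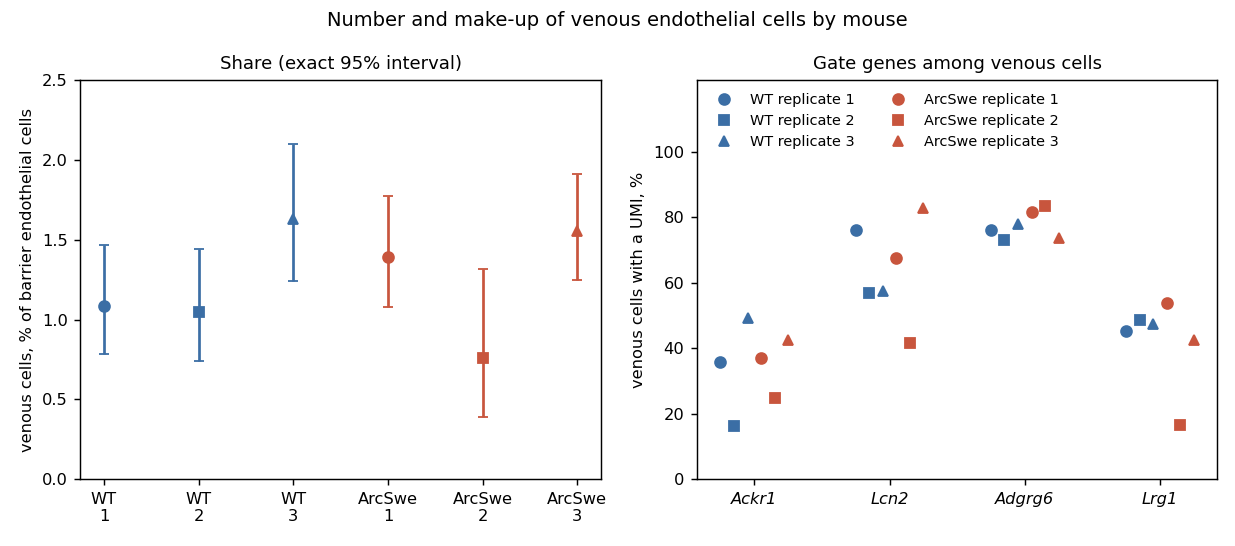
Left, venous cells as a percentage of barrier endothelial cells, 1 point per mouse with its exact 95% binomial interval; the WT points at 1.05% to 1.63% and the ArcSwe points at 0.757% to 1.55% overlap. Right, the percentage of venous cells with a UMI of each gate gene, 1 point per mouse, where *Ackr1* ranged from 16.2% to 49.2%.

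The next comparison asked which genes of venous cells differed by genotype. No gene passed an adjusted p of 0.05 among 5578 tested in summed counts per mouse (edgeR quasi-likelihood test with Benjamini-Hochberg adjustment, 0% called), and none passed with DESeq2. At an unadjusted p under 0.05, edgeR listed 184 genes (3.30%), 102 of them higher in ArcSwe (1.83%), and DESeq2 listed 63. Without WT replicate 3 the edgeR count was 400 of 5613 genes. The ArcSwe values lay wholly above the WT values for 185 genes (3.32%) and wholly below for 294 genes (5.27%). With no filter on low counts, 22 of 14607 genes passed in edgeR, *Ifit1*, *Ifi47*, *Nr1d1*, *Cxcl10*, *Ifit3* and *Kif23* among them. The genotype values below are from the filtered fit and describe single genes that did not pass its adjusted test, each with an edgeR adjusted p of 1.00. In capillary cells of the same mice, edgeR also called none of 12416 genes, 514 having an unadjusted p under 0.05, and DESeq2 called 9.

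Interferon-stimulated genes were among those with the smallest unadjusted p-values. *Ifit1*, an RNA-binding antiviral effector, had 49.8, 47.1 and 53.3 CPM in WT (16, 15 and 21 UMIs) and 111, 75.0 and 128 CPM in ArcSwe (62, 9 and 74 UMIs). All 3 ArcSwe mice lay above all 3 WT mice, and the log2 difference of *Ifit1* was 1.18 with a standard error (SE) of 0.25 (edgeR, unadjusted p = 0.000217, adjusted p = 1.00). *Ifi47*, an interferon-inducible GTPase, was 1.54 higher (SE 0.36), with 31.8 ± 12.4 CPM in WT and 107 ± 52.0 CPM in ArcSwe (SD, n = 3 each). *Bst2*, which encodes the virus-tethering protein tetherin, had 165, 157 and 140 CPM in WT and 257, 192 and 237 CPM in ArcSwe, without overlap. *Cxcl10*, a chemokine that attracts T cells, had 96.5, 56.6 and 96.5 CPM in WT and 332, 75.0 and 173 CPM in ArcSwe, where ArcSwe replicate 2 lay among the WT values.

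Of 25 interferon-stimulated genes tested, 23 were higher in ArcSwe, as were 48.2% of all genes tested, and 12 had an unadjusted p under 0.05, 11 of them higher and *Ifi27l2a* lower. Their median log2 difference was 0.58, against -0.01 over all genes tested, and 0.24 for the same genes in capillary cells. Groups did not overlap for *Ifit1*, *Bst2* and *Gbp2* (higher) and *Ifi27l2a* (lower). Over all genes tested, 3.3% had an unadjusted p under 0.05, 3.32% lay wholly above WT and 5.27% wholly below. By mouse, the median deviation of the 25 genes from the WT mean was 0.12, -0.17 and 0.12 in WT and 0.53, 0.15 and 0.58 in ArcSwe. ArcSwe replicate 2, with 12 cells, was thus close to the WT mice. In its 913 capillary cells the deviation was -0.05, against 0.26 and 0.36 in ArcSwe replicates 1 and 3. Capillary cells of WT stood at 0.13, -0.15 and 0.08. Without ArcSwe replicate 2 the list median in venous cells was 0.64. It was 0.45 without ArcSwe replicate 1, 0.43 without ArcSwe replicate 3 and 0.60 without WT replicate 3. The 12 genes with an unadjusted p under 0.05 became 6 without ArcSwe replicate 1, 7 with DESeq2 and 5 with a venous sum of at least 5. The list was known from earlier results of these data, and its count is no independent evidence of a direction.

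MHC class I genes showed the same side. *B2m*, which encodes the light chain of all class I molecules, had 1238, 1075 and 1242 CPM in WT and 1777, 1717 and 1934 CPM in ArcSwe. The groups did not overlap, the log2 difference was 0.64 (SE 0.20; edgeR, unadjusted p = 0.0055, adjusted p = 1.00), and that of capillary cells was 0.63. *H2-Q6* had 121, 126 and 114 CPM in WT and 191, 167 and 221 CPM in ArcSwe. *H2-Q4* had 156, 148 and 102 CPM in WT and 270, 233 and 187 CPM in ArcSwe. Of the 16 genes tested, 14 were higher in ArcSwe, 7 had an unadjusted p under 0.05, and groups did not overlap for *H2-Q6*, *H2-Q4*, *B2m* and *H2-M3*. Over all genes tested, 48.2% were higher in ArcSwe, 3.3% had an unadjusted p under 0.05 and 3.32% lay wholly above WT. The classical heavy chains *H2-K1* and *H2-D1* overlapped between genotypes, with log2 differences of 0.47 and 0.30. The list median was 0.47 in venous and 0.42 in capillary cells. By mouse, the median deviation from the WT mean in venous cells was 0.21, -0.24 and 0.09 in WT and 0.41, 0.19 and 0.54 in ArcSwe, so ArcSwe replicate 2 lay below WT replicate 1. The 7 genes became 3 without ArcSwe replicate 3.

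**Figure D4:**
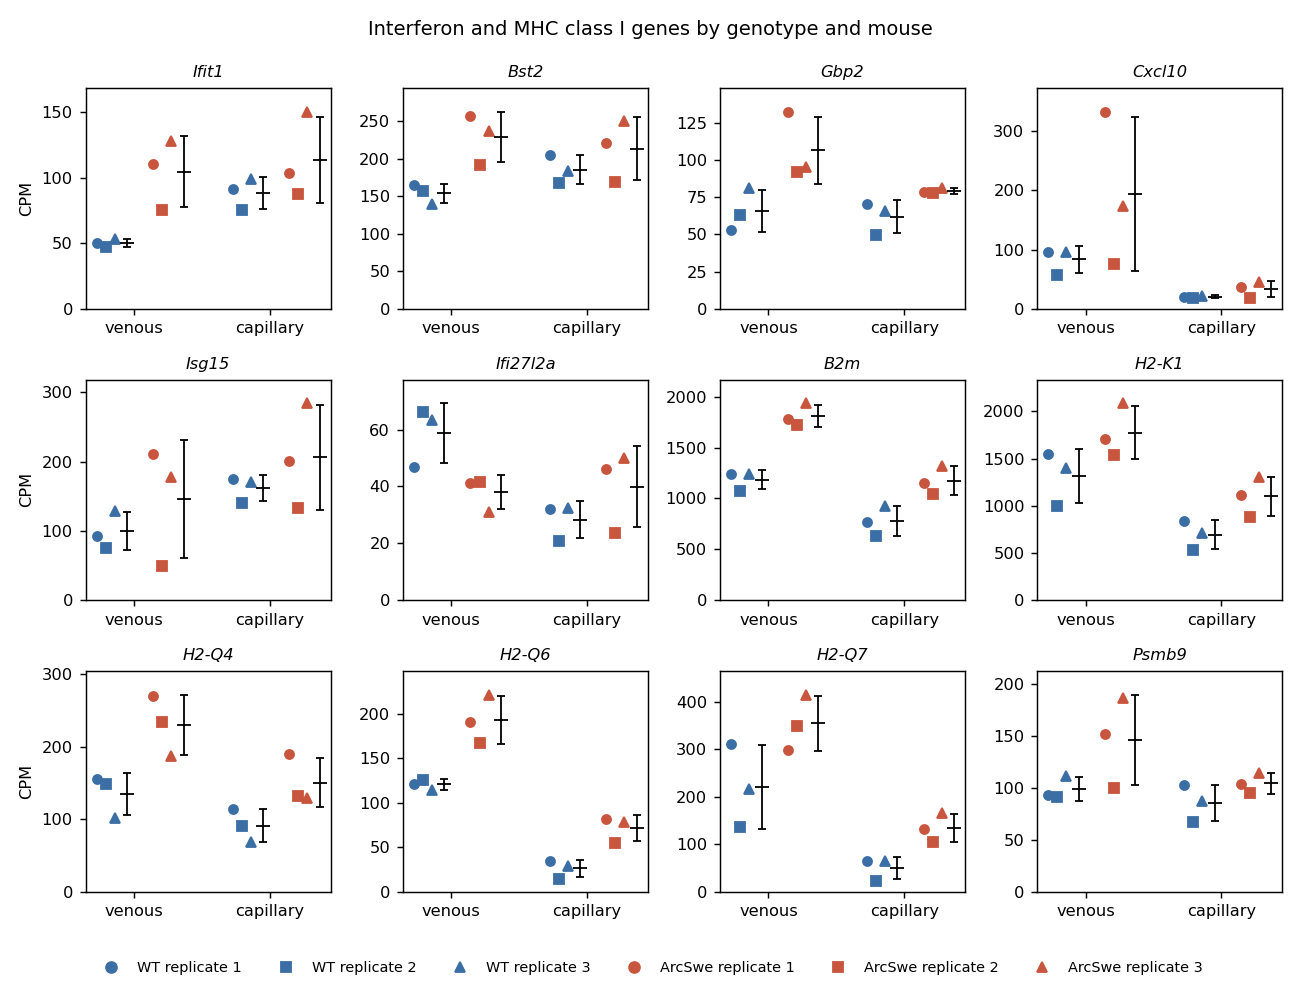
CPM per mouse in venous and capillary cells for 12 interferon and MHC class I genes, on linear axes from 0, with the mean and SD of each genotype beside its points. *Ifit1*, *Bst2* and *B2m* show the 3 ArcSwe venous points above the 3 WT points, and *Ifi27l2a* shows them below.

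The promoters of these genes were read for letters that interferon and inflammatory transcription factors are known to bind. The letters searched on both strands were GAAA, any 2 bases and GAAA, like an interferon-stimulated response element (ISRE), and GGGA, any 2 bases and TTCC, like an NF-kB site. In RefSeq promoter windows (GRCm38.p6, 250 bases before to 50 after the start), the ISRE-like letters occurred in 3.44% of 32851 windows and the NF-kB-like letters in 1.47%. They are shown for *Ifit1*, *Bst2*, *B2m* and *Cxcl10*, chosen because they hold matches and are described above. Capitals mark both kinds of match, and each stretch is given 5′ to 3′ on the strand of its gene.
Ifit1, chr19:34640739-34640848, plus strand: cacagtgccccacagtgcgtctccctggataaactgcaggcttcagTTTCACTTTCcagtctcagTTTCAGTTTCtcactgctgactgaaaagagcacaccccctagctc
Bst2, chr8:71537513-71537622, minus strand: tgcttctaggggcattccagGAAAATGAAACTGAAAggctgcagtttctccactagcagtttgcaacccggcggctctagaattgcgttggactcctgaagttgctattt
B2m, chr2:122147537-122147646, plus strand: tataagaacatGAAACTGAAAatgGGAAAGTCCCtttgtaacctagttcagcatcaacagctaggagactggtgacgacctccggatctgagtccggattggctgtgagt
Cxcl10, chr5:92349010-92349119, minus strand: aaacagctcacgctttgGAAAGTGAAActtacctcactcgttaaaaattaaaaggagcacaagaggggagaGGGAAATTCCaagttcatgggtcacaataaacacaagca

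*Ifit1* held 2 ISRE-like matches, 104 and 85 bases before its start, and *Bst2* held 2 that overlap each other. *B2m* held an ISRE-like match 139 bases and an NF-kB-like match 126 bases before its start, and *Cxcl10* held one of each. ISRE-like letters were found for 15 of 24 interferon-list genes with a promoter in the table and for 3 of 15 MHC class I genes (*B2m*, *H2-T22* and *H2-T23*), against 3.99% of 27025 genes with a promoter. NF-kB-like letters were found for 3 of the 24 interferon-list genes and for 1 of the 15 MHC class I genes (*B2m*), against 1.63% of genes. Of the 14 venous genes outside the gate with a promoter, 1 held ISRE-like letters (*Tgfbi*) and 0 NF-kB-like letters, and none of the 4 genes of the gate held either kind. Of 26 acute-phase and cytokine genes with a promoter, 6 held NF-kB-like and 5 ISRE-like letters, with *Cxcl10* in both counts. A match describes the letters of the window and not the binding of a factor.

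Venous markers did not follow the interferon and MHC class I genes. Of 15 venous genes outside the gate, 6 were higher and 9 lower in ArcSwe, none had an unadjusted p under 0.05, and the median was -0.07. *Vcam1* was the exception to overlap: the ArcSwe values (1532, 1426 and 1538 CPM) lay below the WT values (1593, 2055 and 2562 CPM), with a log2 difference of -0.43 (SE 0.22; edgeR, unadjusted p = 0.0672, adjusted p = 1.00). *Il1r1*, *Icam1* and *Ptgs2* overlapped, with differences of -0.21, -0.04 and -0.04. *Casp4* also overlapped between genotypes, with a difference of 0.21 (SE 0.30; edgeR, unadjusted p = 0.504, adjusted p = 1.00), against 0.78 in capillary cells. *App* was at 1441, 1643 and 1404 CPM in WT and 1527, 1659 and 1417 CPM in ArcSwe, where a part from the transgene cannot be told apart.

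Clock genes went both ways. *Nr1d1*, which encodes the circadian repressor REV-ERB alpha, had 21.8, 15.7 and 7.62 CPM in WT and 69.6, 66.7 and 32.9 CPM in ArcSwe, a log2 difference of 1.88 (SE 0.47; edgeR, unadjusted p = 0.000998, adjusted p = 1.00). *Hlf*, a clock output factor, and *Npas2*, a partner of BMAL1, had log2 differences of 1.10 and -0.90. *Nr1d2*, a paralogue of *Nr1d1*, had 43.6, 53.4 and 45.7 CPM in WT and 37.5, 16.7 and 41.5 CPM in ArcSwe, all below the WT values. Of 8 clock genes, 4 were higher and 4 lower. The counts were small, since *Nr1d1* had 7, 5 and 3 UMIs in WT and 39, 8 and 19 in ArcSwe. In capillary cells its difference was 0.94.

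Single genes of other groups also separated the genotypes without passing the adjusted test. They were picked from all genes tested, of which 3.32% lay wholly above WT and 5.27% wholly below. An unadjusted p under 0.05 was found for 3.3% of all genes tested. *Bcl2l11*, which encodes the pro-apoptotic protein BIM, had 21.8, 28.3 and 10.2 CPM in WT and 35.7, 66.7 and 57.1 CPM in ArcSwe, and was the one gene of 18 in the cell death list with an unadjusted p under 0.05. *Id1*, a target of BMP signalling, had 1571, 1527 and 1229 CPM in WT and 816, 892 and 1164 CPM in ArcSwe, and *Id3* lay on the same side with a log2 difference of -0.51. *Rhoj*, a GTPase of endothelial migration, had 243, 299 and 287 CPM in WT and 480, 584 and 334 CPM in ArcSwe. *Rsrc2* and *Crebzf* were lower in ArcSwe, by log2 differences of -0.71 and -1.14. The remaining genes chosen in this way included *Kif23*, *Cyp2e1*, *Ddx47*, *Cnot10*, *Arih1*, *Myo1e*, *Fubp1*, *Ankrd37* and *Pdrg1*.

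The other lists held few such genes. Transporters gave 18 higher and 6 lower of 24, none with an unadjusted p under 0.05, and a median of 0.11. Cytokine genes gave 15 higher of 26, with *Cxcl10* higher and *Cebpd* lower at an unadjusted p under 0.05. Vasoactive genes gave 5 higher of 8, and *Edn1*, which encodes the vasoconstrictor endothelin 1, had 99.6, 119 and 93.9 CPM in WT and 157, 150 and 133 CPM in ArcSwe, without overlap. No member had an unadjusted p under 0.05 among 14 leukocyte adhesion, 10 coagulation, 15 junction or 15 amyloid-handling genes. Immediate early genes gave 18 higher of 20 with a median of 0.29, and WT replicate 3, which was low in them, is among the 3 WT mice of that difference.

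The last comparison asked whether the genotype difference itself differed between venous and capillary cells of the same mice. It did for 7 of 11063 genes (0.0633%) in edgeR with the mouse as a block, and for none in DESeq2, which listed 179 at an unadjusted p under 0.05, against 496 in edgeR. Of the 7, *Hbb-bt* (a hemoglobin chain) and *Dnajb1* (a heat shock co-chaperone) had the more positive difference in venous cells, but that of *Hbb-bt* turned to -0.76 without ArcSwe replicate 1 and to -2.42 with a venous sum of at least 5. *H2-Q7*, *Noct*, *Cxcl1*, *Rnd1* and *Mt2* had the more negative one. No gene of the interferon list was among the 7.

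*Dnajb1* had 193, 270 and 140 CPM in venous cells of WT and 452, 267 and 239 CPM in those of ArcSwe, a log2 difference of 0.73, against -0.08 in capillary cells (edgeR, adjusted p = 0.0201). *Dnajb1* is in the immediate early and stress list in which WT replicate 3 was low, and without that mouse the gap was 0.76 (edgeR, adjusted p = 0.0262). Over the alternative settings, the venous difference of *Dnajb1* ran from 0.33 to 1.03 and its gap from 0.56 to 0.88. *H2-Q7* had 311, 135 and 216 CPM in venous cells of WT and 298, 350 and 415 CPM in those of ArcSwe. Its genotype difference was 0.72 in venous and 1.47 in capillary cells, where its means were 49.9 CPM in WT and 134 CPM in ArcSwe, and the gap of -0.82 passed (edgeR, adjusted p = 0.0137). *Cxcl1* differed by -0.29 in venous and 0.38 in capillary cells (edgeR, adjusted p = 0.0255). Without WT replicate 2, *Dnajb1* alone of the 7 passed, and the gaps of *H2-Q7* and *Cxcl1* were -0.70 and -0.61 (edgeR, adjusted p = 0.215 and 0.658). *Mt2*, a metallothionein, was led by WT replicate 2, with 401, 946 and 411 CPM in venous cells of WT and 496, 375 and 296 CPM in those of ArcSwe. *Noct*, a circadian phosphatase, had 131, 220 and 188 CPM in WT and 87.5, 133 and 130 CPM in ArcSwe in venous cells, and 61.6 to 98.7 CPM in capillary cells of either genotype.

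**Figure D5:**
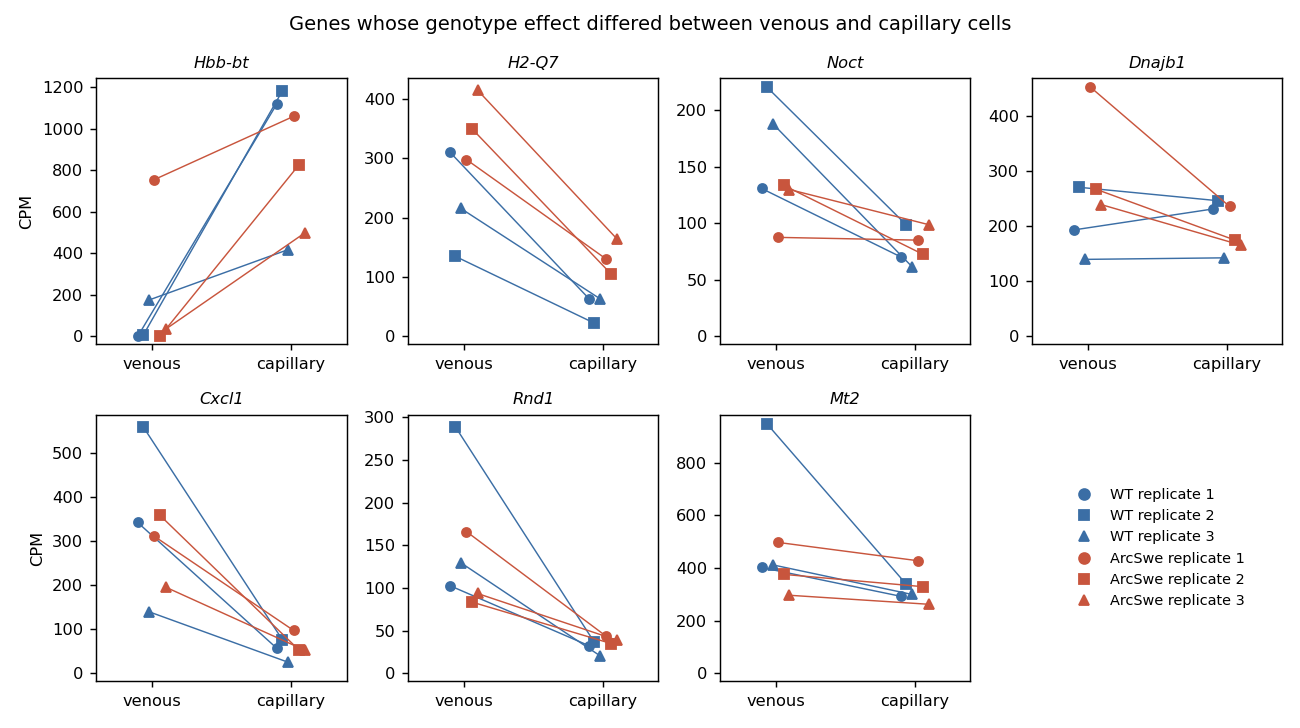
CPM in venous and capillary cells of each mouse, joined by a line, for the 7 genes whose genotype difference differed between the zones. In venous cells *Dnajb1* was highest in ArcSwe replicate 1 (452 CPM) and *Mt2* in WT replicate 2 (946 CPM).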

How the data were processed

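Raw UMI counts per gene and cell, as the authors deposited them, were used for 6 mice (49059 cells, 32287 features). Per the study's methods and processing notes, the authors mapped 10x 3′ libraries to mm10 with Cell Ranger 7.0.0. Replicates were separate mice. Barcodes outside 500 to 4500 genes, or with 10% or more of their UMIs from mitochondrial genes, were dropped, leaving 44112. No doublet caller was run: the limit on genes and the absence of myeloid UMIs were the only safeguards. The venous gate is given above. Capillary cells had at most 1 venous and 1 of either arterial UMI sum and at least 3 UMIs over *Mfsd2a*, *Spock2* and *Rgcc*. Arterial cells had at most 1 venous UMI and at least 3 of either arterial sum. Counts of the cells were summed per mouse, and 2706 ribosomal, mitochondrial, pseudogene and Rik features were left out of genotype tests, as in the study.

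Genotypes were compared with edgeR 4.0.16 (TMM, filterByExpr, quasi-likelihood test, Benjamini-Hochberg adjustment over all genes tested, threshold 0.05) in R 4.3.3, and the difference of the genotype effect between zones with genotype by zone and the mouse as a block. The procedure was tested on simulated data. DESeq2 1.42.0 was an alternative. The share was compared by an exact permutation test over mice in R, and its binomial intervals came from scipy 1.17.1 (Python 3.11.15). Genes were named by smallest unadjusted p among those whose genotypes did not overlap with a mean of at least 10 UMIs per mouse (20 genes), by an unadjusted p under 0.05 within a gene list, as venous markers, or by the largest zone differences among genes of at least 20 CPM. *Casp4* was named because the study discusses it, *B2m* from an earlier account of these data, and *App* as a check of the transgene. The members and lists were chosen with earlier results of these data known. Gene coordinates are those of GRCm38. Some genes that met these rules are not reported here.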

Additional observations from a re-analysis of the deposited data

Results flagged for a closer look

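The genotype difference was larger or smaller in venous than in capillary cells for 7 genes (interaction of genotype and zone, edgeR with the mouse as a block, adjusted p under 0.05). *Hbb-bt* had the widest gap, 1.70 on the log2 scale (edgeR, adjusted p = 1.84e-05), and it had 0, 2 and 69 UMIs in venous cells of WT and 423, 0 and 20 in those of ArcSwe. The gap of *Hbb-bt* was -0.76 without ArcSwe replicate 1, so that 1 library set its direction, and in the same library 4 of 65 venous cells held a UMI of *Hbb-bs*, another beta-globin gene. *Dnajb1* had a gap of 0.76 (edgeR, adjusted p = 0.0201), and *H2-Q7* one of -0.82 (0.0137), in a gene whose reads may be divided among close copies. *Noct*, *Cxcl1*, *Rnd1* and *Mt2* had gaps of -0.93, -0.76, -0.94 and -0.66 (edgeR, adjusted p = 0.0201, 0.0255, 0.0390 and 0.0424). *Rnd1* had 103, 289 and 129 CPM in venous cells of WT and 166, 83.4 and 93.4 CPM in those of ArcSwe, so WT replicate 2 was the highest, as it was for *Noct*, *Cxcl1* and *Mt2*. Without WT replicate 2, the gaps of *Noct*, *Cxcl1*, *Rnd1* and *Mt2* were -0.98, -0.61, -0.59 and -0.28 (edgeR, adjusted p = 0.0579, 0.658, 1 and 1), and *Dnajb1* was the one gene of the 7 that passed (0.0323), beside *Cxcl2*, *Alas1* and *Vcl*. With DESeq2 none of the 7 passed, at gaps of 2.98 for *Hbb-bt*, 0.74 for *Dnajb1*, -0.83 for *H2-Q7*, -0.90 for *Noct*, -0.66 for *Cxcl1*, -0.97 for *Rnd1* and -0.65 for *Mt2* (DESeq2, adjusted p = 1.00 each).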

How the results depend on the processing

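Limits of these data include 3 mice per group and few venous cells, 302 in all and 12 in ArcSwe replicate 2. The count of genotype genes in venous cells was 22 with no filter on low counts (14607 genes tested), 1 with a venous sum of at least 5 (*Nup210l*), and 0 to 1 with a mouse left out. Same-numbered mice had correlations of -0.017, 0.051 and 0.153, and pairs of other numbers -0.122 to 0.046. WT replicate 3 and ArcSwe replicate 3, the pair at 0.153, also had the highest sums of microglial genes (515 and 510 CPM). Whether libraries of the same number shared a batch was not tested. The fit with a replicate block called 0 genes and gave 241 an unadjusted p under 0.05. The count of genes whose genotype effect differed between zones was 0 with DESeq2 and 3 to 13 with a mouse left out (3 without ArcSwe replicate 1, 4 without WT replicate 2, 13 without ArcSwe replicate 2). *Hbb-bt* reversed to -2.42 with a venous sum of at least 5 and -0.76 without ArcSwe replicate 1.

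The difference in venous share, -0.0203 percentage points, turned positive at 0.0670 with a venous sum of at least 5, 0.0528 with myeloid UMIs allowed and 0.0703 with cells thinned to 2000 UMIs, and ran from -0.180 to 0.218 with a mouse left out (0.167 without WT replicate 3). The interferon list median ran from 0.39 to 0.75 over the alternatives other than thinning, where 2 genes were left at -0.35. That of MHC class I ran from 0.38 to 0.60, and was 0.35 when thinned. Of the 7 genes whose genotype effect differed between zones, each passed in 4 to 7 of 11 alternatives (*Rnd1* and *Mt2* in 4, *H2-Q7* in 5, *Noct* in 6, *Hbb-bt*, *Dnajb1* and *Cxcl1* in 7). The tally of *Hbb-bt* includes a pass in the opposite direction, at -2.42 with a venous sum of at least 5 (edgeR, adjusted p = 1.05e-05). Of 693 genotype values of named genes in venous cells, all from an adjusted p of 1.00, 683 kept their direction and side of the threshold. *Casp4* reversed to -0.20 with a venous sum of at least 5 and to -0.0081 without WT replicate 3, *Bst2* to -0.17 when thinned and *Irgm1* to -0.0546 without ArcSwe replicate 1. With a mouse left out, *Irgm1* ran from -0.0546 to 1.41, *Casp4* from -0.0081 to 0.66 and the gap of *Hbb-bt* from -0.76 to 6.72. *Ifit1*, *Ifi47*, *Nr1d1*, *Kif23*, *Cxcl10* and *Ifit3* passed with no filter. The cause of these changes was not tested.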
